A study of Mus musculus with 72 samples.

Results

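The genes described here encode the basal transcription machinery and the Mediator complex. They were chosen by symbol alone, as protein-coding genes of the mouse annotation whose names begin with Taf, Med, Polr, Gtf or Supt followed by a digit, together with Sp1, Sp3, Sp4, Cdk7, Cdk8, Cdk9, Ccnt1 and Ccnt2. This gave 114 members among 20807 autosomal protein-coding genes; 5 matching genes on the X chromosome were left out. No measured value entered the choice. A site was assigned to a member when it overlapped the gene body or the 1000 bp before the start.

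The data are CUT&RUN profiles, in which an antibody guides micrococcal nuclease to a histone mark so that the DNA around it is released and sequenced. Histone H3 carrying 1 or 2 methyl groups on lysine 27 (H3K27me1 and H3K27me2), with IgG as antibody background, was profiled in the nucleus accumbens of adult wild-type male mice, in 72 libraries. Control mice, mice labelled susceptible and mice labelled resilient in a chronic social defeat stress cohort gave 4 libraries per mark. A second cohort gave 3 H3K27me1 libraries from mice with early life stress followed by subthreshold defeat in adulthood (called stressed below) and 3 from standard-reared control mice; between these groups rearing and adult defeat both differ, and their effects cannot be told apart. Strain, ages and the number of animals behind a library are not given in the sources used here, so p-values reflect the spread among these libraries alone, and that spread may be technical. Defeat cohort libraries averaged 10.56 to 40.63 reads per 1000-bp bin per the file headers, and those of the early stress table only 5.0 to 7.78. The tissue identity cannot be read from tables of differential sites: of 12 medium spiny neuron marker genes, none held a called site in the defeat tables and 2 (Pde10a and Rgs9) did in the early stress table.

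RNA polymerases I, II and III share a general logic. Each enzyme is placed on a promoter by dedicated factors: SL1 for ribosomal RNA genes, TFIID with TFIIA, TFIIB, TFIIE, TFIIF and TFIIH for messenger RNA genes, and TFIIIA or TFIIIC for 5S and transfer RNA genes. Mediator bridges activators and polymerase II, and the kinases Cdk7, Cdk8 and Cdk9 phosphorylate the polymerase or its regulators. H3K27me1 is found in the bodies of transcribed genes, whereas H3K27me2 covers broad regions outside active genes and promoters. Nearly all of these genes are active in every cell type, and the accumbens is bulk tissue, so a lower mark per cell and fewer cells with the mark cannot be told apart.

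The result for H3K27me1 in the susceptible mice was a lean to lower signal within gene bodies. Of the 114 members, 58 (50.9%) held at least 1 called site, meaning an adjusted p under 0.05 in the authors' deposited table, beside 20.9% of all autosomal protein-coding genes. Lower sites lay in 51 members (44.7%, against 16% of all genes), and higher sites in 13 (11.4%, against 8.34%). Over sites, 105 of 125 were lower and 20 higher, so that 16% were higher (exact 95% interval 10.1 to 23.6, counting error only), where 51.6% of called sites in all genes were higher. Genes over 100 kb, whose called sites were 75.0% higher, held 5512 of those 10594 sites but 14 of the 125 member sites. In the resilient mice, measured against the same 4 control libraries, 34 members (29.8%, against 15.5%) held a site. Lower sites lay in 30 of them (26.3%, against 10.7%) and higher sites in 17 (14.9%, against 8.13%). The 57 resilient sites comprised 38 lower and 19 higher, or 33.3% higher (21.4 to 47.1) beside 48.8% in all genes. After early life stress and subthreshold defeat, 16 members (14.04%, against 13.6%) had a site, a share near the background. Higher sites lay in 11 (9.65%, against 9.79%) and lower sites in 8 (7.02%, against 5.44%), and 14 of 23 sites were higher (60.9%, 38.5 to 80.3, against 66.6%).

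**Figure D1:**
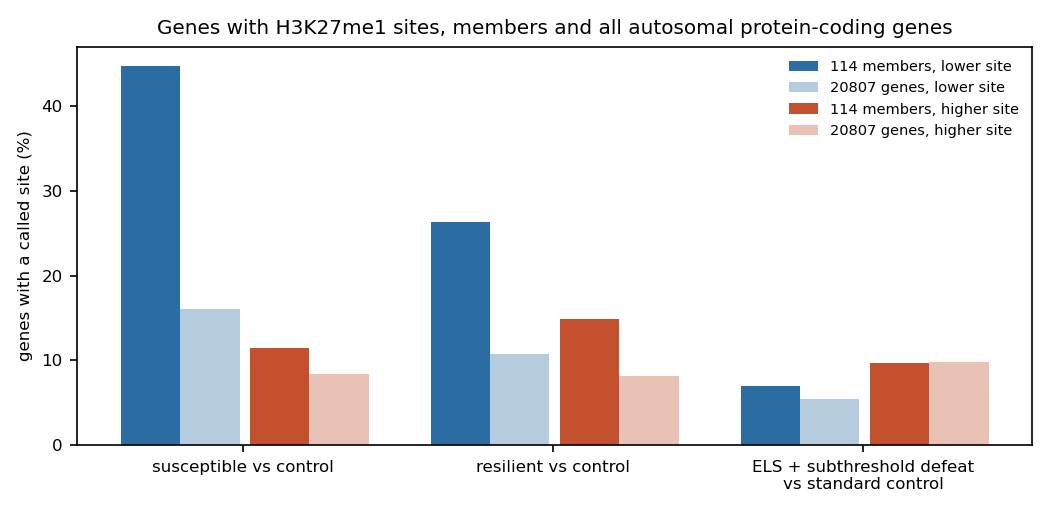
Percent of genes with a called lower (blue) or higher (red) H3K27me1 site, for the 114 members (dark bars) and all 20807 autosomal protein-coding genes (pale bars), in each of 3 comparisons. The dark blue bars for susceptible (44.7%) and resilient (26.3%) mice exceed the pale ones (16% and 10.7%), while in the early stress comparison the bars are close to each other.

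Called changes were modest. Member sites ranged from -0.86 to 0.50 in the authors' log2 fold change in the susceptible table, with medians of -0.42 at lower and 0.41 at higher sites, close to the medians of all genic sites (-0.43 and 0.43). Groups of libraries did not overlap at 59 of 125 susceptible member sites (47.2%, against 52.8% of all genic sites) and at 25 of 57 resilient ones (43.9%, against 54.8%). The authors' defeat tables rest on a G-test of pooled reads, which leaves out the spread between libraries. A limma fit across libraries, with Benjamini-Hochberg adjustment over the sites of each table, passed at 123 of 125 susceptible and 57 of 57 resilient member sites. These sites were selected on the same libraries, so that is no separate support, and adjusted over all windows that the authors tested 0 sites passed in either table. Limma p-values below are adjusted over the sites of a table. The number of members with a site was 33 without control library 31 in the susceptible table, where the other omissions gave 39 to 48. It was 17 to 22 without any 1 library in the resilient table (17 without resilient library 30). The share of higher susceptible sites was 10.4% without control library 31.

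**Figure D2:**
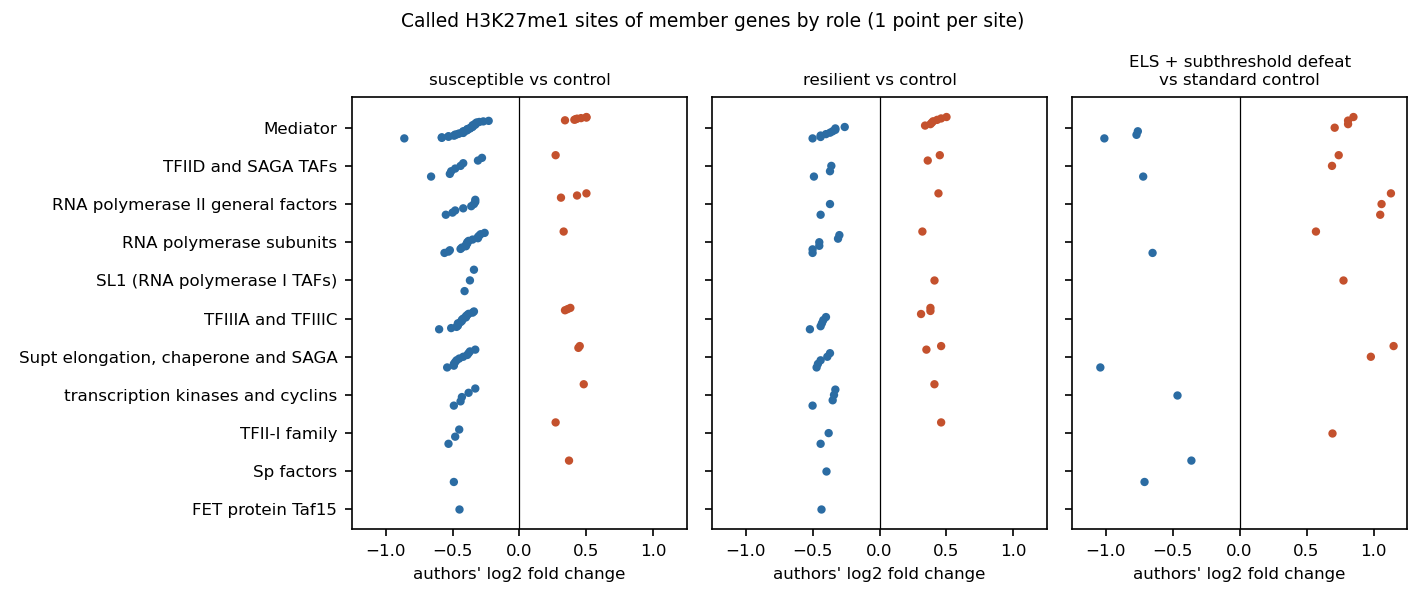
Authors' log2 fold change of each called H3K27me1 site (1 point) in a member gene, by role of the gene, for the susceptible, resilient and early stress comparisons. In the susceptible panel 105 points lie left of 0 and 20 right of it; the early stress panel has fewer points at larger fold changes.

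Few sites lay at promoters. Within 1000 bp of the start the susceptible table had 1 member site (Med28, higher; 0.8%, against 0.793% of all genic sites), the resilient one those of Gtf3c3 and Polr2d (both lower; 3.51%, against 0.847%) and the early stress one those of Gtf2f1 and Gtf2h1 (both higher; 8.7%, against 4.92%). The 250 bases before the RefSeq start of 4 of these genes are shown because their sites touch or flank it (GRCm38.p6; Polr2d is not shown). Capitals mark matches, on either strand, to 6 short motifs. The motifs searched were GGGCGG, the GC box bound by Sp factors; TATAAA, the core of the TATA box bound by TFIID; CCAAT, the site of the factor NF-Y; CCGGAAG, a core bound by many proteins of the ETS family; GCATGCGC, part of the palindrome of the respiratory gene factor NRF1; and AAGATGGCG, the motif of the zinc finger protein YY1.
Med28 promoter, chr5:45519979-45520228, plus strand: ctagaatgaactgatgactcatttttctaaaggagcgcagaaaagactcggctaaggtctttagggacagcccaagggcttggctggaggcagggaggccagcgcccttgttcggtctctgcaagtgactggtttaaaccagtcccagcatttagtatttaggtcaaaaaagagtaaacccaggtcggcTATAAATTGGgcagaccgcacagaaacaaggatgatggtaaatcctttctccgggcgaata
Gtf3c3 promoter, chr1:54439027-54439276, minus strand: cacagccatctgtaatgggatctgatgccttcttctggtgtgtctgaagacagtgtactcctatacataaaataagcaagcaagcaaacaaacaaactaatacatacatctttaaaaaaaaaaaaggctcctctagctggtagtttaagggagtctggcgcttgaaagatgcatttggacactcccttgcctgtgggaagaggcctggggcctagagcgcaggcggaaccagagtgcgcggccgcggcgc
Gtf2f1 promoter, chr17:57011289-57011538, minus strand: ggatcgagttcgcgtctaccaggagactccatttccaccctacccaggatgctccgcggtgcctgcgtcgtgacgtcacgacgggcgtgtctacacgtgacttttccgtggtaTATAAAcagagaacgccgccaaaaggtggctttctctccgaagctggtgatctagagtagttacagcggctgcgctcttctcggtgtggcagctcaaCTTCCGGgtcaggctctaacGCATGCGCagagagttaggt
Gtf2h1 promoter, chr7:46795844-46796093, plus strand: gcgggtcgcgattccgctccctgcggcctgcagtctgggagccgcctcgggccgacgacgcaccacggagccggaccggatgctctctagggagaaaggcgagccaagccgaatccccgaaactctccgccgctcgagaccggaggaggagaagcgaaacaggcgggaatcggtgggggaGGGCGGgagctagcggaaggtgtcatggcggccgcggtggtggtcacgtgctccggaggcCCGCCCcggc

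The Med28 stretch held a TATA box that overlaps a CCAAT match by 1 base, the Gtf2f1 stretch a TATA box, an ETS and an NRF1 match, the Gtf2h1 stretch 2 GC boxes and the Gtf3c3 stretch none of the 6 motifs. Promoters of 100 of the 114 members could be matched. ETS matches occurred in 28 of them (28%), against 9.71% of 15703 promoters of all autosomal protein-coding genes, NRF1 matches in 10% against 3.17%, and GC boxes in 63% against 45%. TATA boxes were in 10% against 11.97%, CCAAT boxes in 34% against 35.7%, and YY1 motifs in 3% against 0.707%. Members' promoters were also richer in G and C, with a median of 60.2% against 56.4%. A match is a string of letters and shows no binding.

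At these promoters the read counts went in different directions. Med28, a head subunit of Mediator, had a higher susceptible site that ends 478 bases before the stretch shown (chr5:45518201-45519500), with 103, 92.2, 100.3 and 116 reads in control and 128, 136, 156 and 131 in susceptible libraries. All susceptible libraries exceeded all control libraries there, with an authors' log2 fold change of 0.42. The Gtf3c3 site in resilient mice (chr1:54438601-54440000) covers the whole stretch and held 102, 109, 109 and 102 reads in control and 64.7, 63.2, 80.4 and 102 in resilient libraries, a fold change of -0.44. Resilient library 36 overlapped the controls there, and enrichment over IgG was 0.99 in the resilient and 1.1 in the control group, so the antibody signal was about that of background. Gtf3c3 encodes a subunit of TFIIIC, which binds transfer RNA genes. In the early stress table the Gtf2f1 site (chr17:57010701-57012200), which also overlaps the predicted gene Gm17949, covers its stretch too. It held 29.6, 29.2 and 46.2 reads in standard control and 71.1, 50.4 and 108 in stressed libraries, and every stressed library was above every control library. Yet its enrichment over IgG was only 0.32 in the stressed and 0.13 in the standard control group, so the antibody signal lay below background in both groups. Gtf2h1, whose site (chr7:46794501-46795500) ends 343 bases before its stretch and lies also in Hps5, had 21.7, 22.4 and 19.2 reads in standard control and 36.7, 36.4 and 58.2 in stressed libraries. Its enrichment over IgG was 1.18 in the stressed and 0.69 in the standard control group, so the standard controls lay below background.

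Mediator, a complex of head, middle, tail and kinase modules, gave the most sites. It is also, with the RNA polymerase subunits, the role with the most genes (28 each). In susceptible mice 13 of its 28 genes held 40 sites, 33 of them lower. The 7 TFIIIA and TFIIIC genes held 19 sites. Counts of genes by role here and below stand beside 58 of all 114 members (50.9%) and 20.9% of all genes. The clearest Mediator site was in Med20, a head subunit. Its exonic site (chr17:47612601-47613600) lies 1.5 kb into the gene and held 76.3, 73.7, 68.3 and 72.8 reads in control and 42.5, 36.1, 39.9 and 41.95 in susceptible libraries. No library of one group came near those of the other, and both groups were tight, at 40.1 ± 2.88 against 72.8 ± 3.36 reads (SD, n = 4 each). Its authors' log2 fold change of -0.86 was the lowest of any member site in that table (limma -0.84 ± 0.16 SE, adjusted p = 0.0127). The gene had 5 lower sites and no higher one, but all of them lie also in Gm20517, a gene model that runs over Med20, so the reads belong to either.

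Med15, the tail subunit that binds activators of lipid metabolism, carried 5 lower sites. The leading one (chr16:17662401-17665000, exonic) held 366, 366, 416 and 392 reads in control and 315, 285, 299 and 305 in susceptible libraries, without overlap. Its fold change was -0.35 and its limma adjusted p 0.0127. Med26, which couples Mediator to elongation factors, also had 5 lower sites; the first, in an intron at chr8:72542601-72544800, held 282, 260.4, 307 and 283 reads in control and 231, 172, 232 and 221 in susceptible libraries. The highest susceptible library there lay below the lowest control. Med13l, which tethers the kinase module to the core, had 4 lower sites led by chr5:118625201-118627500 (intron), with 219.8, 249, 281 and 256 reads in control and 204, 162, 159.7 and 195 in susceptible libraries and again no overlap (limma -0.48 ± 0.12 SE, adjusted p = 0.0127). Med23, a tail subunit used by growth factor signalling, had 5 lower sites with smaller changes. At its leading exonic site (chr10:24876601-24878200) the libraries overlapped, with 303, 353, 358 and 286 reads in control and 220.3, 254, 272 and 288 in susceptible libraries, and the limma adjusted p of 0.0132 became 0.0567 without susceptible library 26.

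Med1, the subunit that nuclear receptors contact, had 4 lower susceptible sites. The first (chr11:98166001-98167100, exonic) held 86.4, 116, 109 and 119 reads in control and 55.3, 82.2, 60.5 and 90.3 in susceptible libraries, and its enrichment over IgG was 1.85 in the susceptible and 4.09 in the control group. Susceptible library 35 there overlapped control library 25. Med27 lost signal at an exonic site (chr2:29390601-29391600) with 76.3, 69.1, 78.9 and 71.01 reads in control and 35.6, 50.6, 61.7 and 49.2 in susceptible libraries, which did not overlap. Med17, the scaffold of the head, held 166, 130.2, 183 and 136 reads in control and 84.96, 117, 132 and 137 in susceptible libraries at chr9:15265801-15267400, with overlap between the groups; its limma adjusted p of 0.0154 became 0.114 without susceptible library 26 and 0.0724 without control library 31. The other Mediator genes with susceptible sites were Med4, Med6 and Med28 (lower) and Med28, Med30 and Med12l (higher). Among 15 without one were Med13, Med10, Med24 and Med16.

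Med12l had only higher sites in susceptible mice. This long gene (313 kb) encodes a paralog of the kinase module subunit Med12, and all 5 of its susceptible sites were higher. The first by adjusted p (chr3:59287101-59288800, intron) held 203, 165, 124 and 155 reads in control and 219, 187, 208 and 206 in susceptible libraries, where control library 25 lay within the susceptible range. The limma adjusted p was 0.0142, and 0.0889 without control library 31. In the resilient table Med12l had 3 higher sites and 1 lower. The first (chr3:59067001-59068600) held 99.95, 86.5, 134.1 and 101 reads in control and 147, 151, 152 and 145 in resilient libraries, with no overlap and a limma adjusted p of 0.0111. Early life stress gave 2 higher and 1 lower Med12l sites; the lower one lies also in P2ry12, a microglial receptor gene nested in it, and 1 of the higher susceptible sites lies also in P2ry14. At the leading early stress site (chr3:59203801-59205000) the values were 97.5, 102 and 93.9 in stressed and 62.2, 56.4 and 61.02 in standard control libraries.

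**Figure D3:**
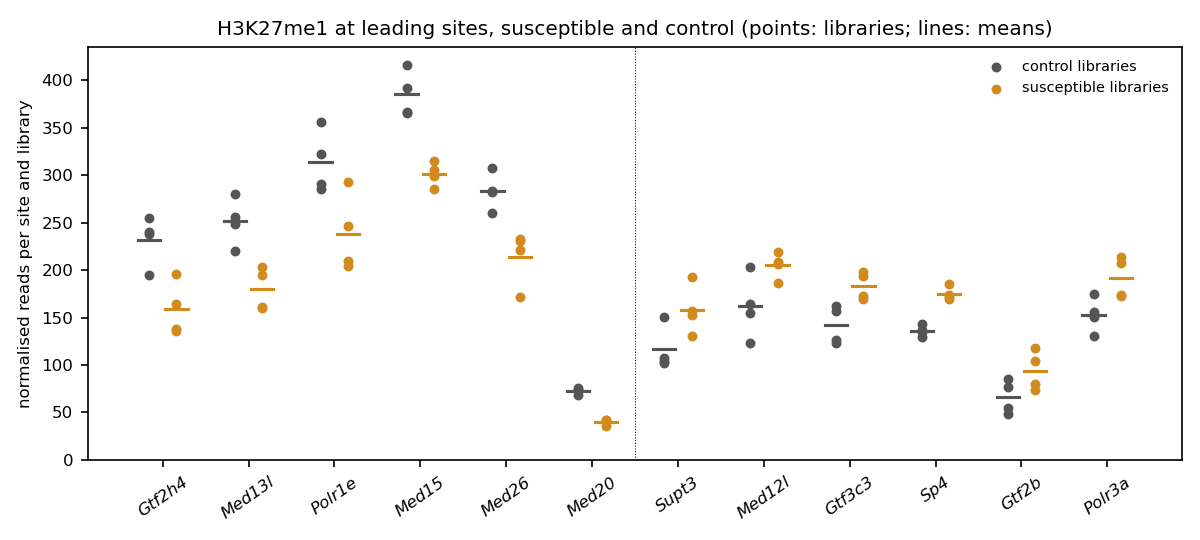
Normalised H3K27me1 reads per library (points) and group mean (lines) at the leading susceptible site of the 6 lower (left) and 6 higher (right) member genes of smallest adjusted p. At Med20 the susceptible libraries lie at 36.1 to 42.5 and the control libraries at 68.3 to 76.3; at the Gtf2h4, Polr1e, Supt3, Med12l, Gtf2b and Polr3a sites the groups overlap.

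Resilient mice differed from controls at 16 Mediator sites in 8 genes, 9 lower and 7 higher. Both tables use the same 4 control libraries, so their values are given side by side only. An intronic Med13l site (chr5:118696601-118697600) was called in both, with 73.5, 71.1, 102 and 75.4 reads in control and 68.96, 50.99, 59.8 and 49.1 in resilient libraries, and a log2 fold change of -0.50 beside -0.49 in susceptible mice. Med13, the paralog of Med13l, had no called site in the susceptible table and 2 lower and 1 higher in the resilient one; the leading one (chr11:86336501-86337700) held 136, 154, 157 and 159 reads in control and 119, 134.1, 113 and 108 in resilient libraries. Med15 and Med27, lower at their leading susceptible sites, were higher at their leading resilient ones. The Med15 site (chr16:17678601-17679700) held 153, 123, 160.3 and 157 reads in control and 168, 194, 211 and 178 in resilient libraries, without overlap (limma adjusted p 0.0116, and 0.0548 without control library 28). The Med27 site (chr2:29523901-29525000), near the end of the gene, held 124, 91.3, 119.9 and 85.4 reads in control and 155, 141, 116 and 141 in resilient libraries. These lie elsewhere in the genes than the susceptible sites. Resilient sites of Med1, Med17 and Med23 were lower at -0.33, -0.44 and -0.33 in log2 fold change, with 125 ± 16.9 against 157 ± 12.6 reads, 82.7 ± 13.7 against 112 ± 20.4 reads and 168 ± 18.4 against 212 ± 31.9 reads (SD, n = 4 each). All 3 lost the limma call on leaving out 1 library. The adjusted p of 0.0148 at Med1 became 0.0561 without resilient library 36 and 0.0532 without control library 28, that of 0.0113 at Med17 0.0502 without control library 34, and that of 0.012 at Med23 0.0513 without resilient library 30 and 0.069 without control library 28. Enrichment over IgG was 2.63 in the resilient and 5.02 in the control group at Med1. In the same order it was 2.13 and 2.57 at Med17 and 6.2 and 6.25 at Med23.

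Among the TAFs of TFIID and SAGA, complexes that recognise core promoters or acetylate histones, 6 of 15 genes had susceptible sites, 8 lower and 1 higher. Taf4, a scaffold of TFIID, had calls in all 3 H3K27me1 tables at nearby positions. In susceptible mice its exonic site (chr2:179913601-179914600) held 97.5, 72.6, 105 and 79 reads in control and 66.2, 55.99, 77.4 and 49.2 in susceptible libraries. In resilient mice an intronic site a few kilobases away (chr2:179918601-179919900) held 138, 145, 144 and 99.9 reads in control and 85.1, 98.7, 91.1 and 99.2 in resilient libraries, with no overlap; control library 34 was the low one. After early life stress a site of the opposite sign (chr2:179920501-179922200) held 93.9, 101 and 76.7 reads in standard control and 144, 163 and 146 in stressed libraries, a log2 fold change of 0.74 (limma 0.74 ± 0.13 SE, adjusted p = 5.14e-06). The susceptible and resilient values were -0.51 and -0.49. No pair of these sites overlapped.

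Taf5l, the SAGA counterpart of Taf5, was called in the 3 tables as well, at sites that all lie also in Gm20388. The susceptible site (chr8:124002701-124003800) held 120.5, 82.95, 103 and 88.8 reads in control and 81.99, 46.96, 78.7 and 76.6 in susceptible libraries; susceptible library 29 was far below the rest, and the limma adjusted p of 0.0129 became 0.0798 without susceptible library 29. The leading resilient site (chr8:124013201-124014400) was higher, with 90.5, 97.2, 95.95 and 76.3 reads in control and 113, 149.6, 116 and 114 in resilient libraries, and a second, lower one was shared with the susceptible table (-0.42 and -0.36). After early life stress the leading site (chr8:123995301-123996700) was lower, at 48.2, 51.3 and 58.2 against 89.9, 88.4 and 81.1 reads. Taf2, which contacts the initiator sequence, had 1 lower and 1 higher site in each of the susceptible and resilient tables. Its higher exonic site in resilient mice (chr15:55039201-55040300) held 155, 149, 116 and 153 reads in control and 179.6, 182, 181 and 193 in resilient libraries, all resilient libraries above all controls, and the overlapping susceptible site changed by 0.27. Enrichment over IgG at the resilient site hardly differed, at 3.77 in the resilient and 3.73 in the control group. The lower susceptible site (chr15:55065801-55067200) held 339, 414, 285 and 304 reads in control and 312, 226, 266 and 305 in susceptible libraries, and the groups overlapped widely (limma adjusted p 0.0333, and 0.153 without susceptible library 29, 0.0722 without control library 25 and 0.202 without control library 28). Taf5, Taf6 and Taf12 held lower susceptible sites only.

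General factors of RNA polymerase II had sites in 8 of 13 genes in susceptible mice, 8 lower and 3 higher. The leading call of the table among members was Gtf2h4, a core subunit of the repair and initiation factor TFIIH. Its exonic site (chr17:35668901-35671400) held 238, 239.6, 255 and 195 reads in control and 138, 136, 196 and 164 in susceptible libraries, with an authors' adjusted p of 1.02e-09 and a limma change of -0.55 ± 0.13 SE (adjusted p = 0.0127). Susceptible library 32 reached the lowest control value, and the other susceptible libraries lay well below. Gtf2h3, in the same core, had 3 lower sites. The first (chr5:124593501-124595400) held 250.1, 225, 287 and 232 reads in control and 189.7, 210.4, 184 and 189 in susceptible libraries, which did not overlap, and another site with the same coordinates in both defeat tables (chr5:124580401-124581800) changed by -0.33 in susceptible and -0.37 in resilient mice (limma adjusted p 0.0121 in the latter, and 0.0637 without control library 25). Gtf2h1, the p62 subunit, was lower within the gene (chr7:46803001-46804100), at 112, 63.2, 94.4 and 80.2 in susceptible against 118, 114, 116 and 119.8 in control libraries. The controls there were close together and susceptible library 26 came nearest to them; the limma adjusted p of 0.0129 became 0.0651 without susceptible library 29.

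Both TFIIF genes carried lower susceptible sites. At Gtf2f1 (chr17:57006001-57007000, exonic) the libraries held 82.8, 67.98, 97.1 and 98.5 reads in control and 57.3, 52.4, 70.2 and 65.7 in susceptible libraries, and at the overlapping resilient site 58.7, 64.3, 65.7 and 83.8 in resilient libraries, with log2 fold changes of -0.50 and -0.44. At Gtf2f2 the susceptible site (chr14:75900701-75901800) held 80, 96.8, 115 and 96.8 reads in control and 51.4, 66.8, 84.7 and 76.6 in susceptible libraries, and the limma adjusted p of 0.0128 became 0.0558 without susceptible library 26; a different intronic site was higher in resilient mice, at 129, 106, 117 and 101 against 81.1, 78.2, 94.9 and 79.9. Gtf2b, which encodes TFIIB and bridges TFIID and the polymerase, was higher in susceptible mice (chr3:142767601-142768600), with 85.5, 77.2, 48 and 55.03 reads in control and 80.02, 118, 73.8 and 104 in susceptible libraries. Those groups overlapped, and the limma adjusted p of 0.0129 became 0.0532 without susceptible library 29 and 0.06 without control library 31. Gtf2e2 of TFIIE was called only in the early stress table, in an exon at its far end (chr8:33776301-33777300), with 14.8, 24.3 and 26.1 reads in standard control and 55.05, 38.3 and 43.1 in stressed libraries and a log2 fold change of 1.06. Together with the Gtf2f1 and Gtf2h1 promoter sites, all 3 general factor sites of that table were higher. So were 66.6% of all its genic sites and 171 of its 213 genic sites within 1000 bp of a start. The Gtf2f1 and Gtf2h1 sites lay below IgG in standard controls. Gtf2a1l, Gtf2a2, Gtf2e1 and Gtf2h5 had no site in any table.

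Of 28 RNA polymerase subunit genes, 9 held susceptible sites, 16 lower and 1 higher. Polr1a, the largest subunit of polymerase I, had 3 lower ones. The first (chr6:71910201-71911800), 1.9 kb into the gene, held 147, 130.2, 159 and 131 reads in control and 108, 89.4, 102 and 95.8 in susceptible libraries, with a clear gap between the groups (limma -0.52 ± 0.14 SE, adjusted p = 0.0127). A resilient Polr1a site (chr6:71925701-71926700) was lower too, with 99.01, 85.3, 87.2 and 124 reads in control and 74.1, 68.7, 83.3 and 63.6 in resilient libraries (limma adjusted p 0.0116, and 0.0642 without control library 34). An early stress site (chr6:71949001-71950500) was higher, with 86.9, 82.6 and 84.6 reads in standard control and 151, 113 and 112 in stressed libraries; these 3 sites do not overlap. Polr1e, another polymerase I subunit, overlaps Fbxo10 at its lower site, so the reads belong to either gene. It held 291, 286, 356 and 322 reads in control and 209, 204, 293 and 246 in susceptible libraries (chr4:45032901-45035400), and the resilient site inside it changed by -0.30 beside -0.40 (limma adjusted p 0.0139, and 0.0813 without control library 31).

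Of the polymerase III subunits, the largest, Polr3a, had 4 lower sites and 1 higher in susceptible mice. The higher one was the leading site (chr14:24461601-24462800), with 175, 151, 156 and 130.5 reads in control and 207, 172, 214 and 174 in susceptible libraries, and the limma adjusted p of 0.0179 became 0.058 without susceptible library 26 and 0.0798 without control library 34. A lower exonic site (chr14:24470101-24471100) held 96.5, 84.1, 126 and 88.8 reads in control and 69.2, 65.9, 87.1 and 69.3 in susceptible libraries. It shares 400 bases with an early stress site (chr14:24470701-24471700) that was also lower and held 113, 109 and 95.02 reads in standard control and 74.5, 58.8 and 69.04 in stressed libraries. That was the only overlap between member sites of the susceptible and early stress tables, which have no library in common; the log2 fold changes were -0.44 and -0.65. Polr3e had a lower susceptible site at chr7:120932101-120933300 (161 ± 25.4 against 197 ± 15.5 reads, SD, n = 4 each). Its limma change of -0.30 ± 0.13 SE was -0.19 without susceptible library 29, and the adjusted p of 0.026 became 0.144 without susceptible library 29, 0.0682 without control library 25, 0.062 without control library 28 and 0.053 without control library 31. Elsewhere Polr3e had a higher resilient site where control library 28 was low, at 224, 99.6, 154 and 184 against 224, 208, 224 and 171 in resilient libraries. The limma change there of 0.37 ± 0.14 SE (adjusted p 0.0131) was 0.15 without control library 28, with an adjusted p of 0.247. Enrichment over IgG at that site was 4.65 in the resilient and 4.73 in the control group. Polr3b and Polr3f each had 1 lower susceptible site. Polr2d, a stalk subunit of polymerase II, had its resilient site before the start (chr18:31787301-31788400), with 93.3, 96, 82.9 and 88.1 reads in control and 57.9, 76.5, 61.7 and 57.8 in resilient libraries, and the groups did not overlap. Polr2a, the catalytic subunit of polymerase II, held no site in any table.

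Factors for ribosomal and small RNA genes also held mostly lower sites in susceptible mice. SL1, which recruits polymerase I, had 1 lower site in each of Taf1a, Taf1b and Taf1c and none in Taf1d. The Taf1b site (chr12:24509601-24511200) held 154, 138, 142 and 145 reads in control and 109.7, 120.1, 115 and 102 in susceptible libraries, without overlap, and an early stress site 58.5, 53.2 and 66.9 in stressed against 36.6, 36.9 and 31.4 in control libraries, the opposite direction at another position. Taf1a was lower with overlapping libraries, at 132 ± 11.5 against 167 ± 21.2 reads (SD, n = 4 each), and a separate resilient site was higher, at 132 ± 23.7 against 99.6 ± 11.3 reads. The limma adjusted p of 0.0192 at the former became 0.0607 without susceptible library 26 and 0.0867 without control library 34, and that of 0.0116 at the latter 0.066 without resilient library 30. TFIIIA and TFIIIC genes had sites in 6 of 7 members, 16 lower and 3 higher. Gtf3c1, the largest TFIIIC subunit, carried 7 lower susceptible sites, the most of any member in 1 table. The leading one (chr7:125661301-125662800) held 203, 137, 193 and 165 reads in control and 130.4, 109, 152 and 129 in susceptible libraries. In resilient mice the gene had 3 lower sites and 1 higher, and 2 pairs of lower sites overlapped between the tables, at -0.38 and -0.40 and at -0.51 and -0.43. At the second pair the signal lay below IgG in every group, with an enrichment of 0.93 in the susceptible and 0.85 in the control group in the susceptible table and 0.61 in the resilient and 0.86 in the control group in the resilient one.

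Gtf3c4, a TFIIIC subunit with acetyltransferase activity, had 4 lower sites. At the first (chr2:28837401-28838500, intron) the values were 96.5, 106, 77.9 and 83.4 reads in control and 47.4, 64.1, 58.1 and 71.1 in susceptible libraries, with no overlap and a log2 fold change of -0.60 (limma adjusted p 0.0127). Gtf3c2 had 3 lower sites, all lying also in Gm29609; the first held 174 ± 25.01 against 230.03 ± 29.3 reads. Gtf3c3 was the exception, with 3 higher sites and none lower. Its leading exonic site (chr1:54403901-54405000) held 127, 162, 124 and 157 reads in control and 198, 172, 194 and 169.6 in susceptible libraries, and every susceptible library exceeded every control library. A different Gtf3c3 site (chr1:54395901-54397000) was higher in resilient mice, with 204 ± 17.8 against 164 ± 23.8 reads (SD, n = 4 each), a limma adjusted p of 0.0133 that became 0.097 without control library 31. Its enrichment over IgG was not higher, at 6.25 in the resilient and 6.54 in the control group. The fold changes of that site and of the promoter site shown above, whose signal was about that of background, had opposite signs. No TFIIIA or TFIIIC gene had an early stress site.

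Elongation and chromatin factors named Supt had susceptible sites in 6 of 7 genes, 11 lower and 2 higher. Supt5, which forms DSIF and controls pausing of polymerase II, held 177, 162, 213 and 187 reads in control and 140.3, 116, 150.04 and 120.4 in susceptible libraries at an exonic site (chr7:28322301-28324200). The groups did not overlap and enrichment over IgG was 2.11 in the susceptible and 4.86 in the control group; the overlapping resilient site changed by -0.39 (limma adjusted p 0.012, and 0.0674 without control library 31). Supt16, a subunit of the histone chaperone FACT, had 3 lower sites. At the first (chr14:52180201-52182100) the libraries of each group were nearly equal, at 257, 259, 240 and 248 reads in control and 193, 194, 198 and 181 in susceptible libraries. Supt6, a chaperone that travels with polymerase II, had 3 lower sites, the first (chr11:78230701-78231900) with 101, 106, 94.9 and 108 reads in control and 74.1, 64.1, 87.1 and 56.5 in susceptible libraries and no overlap. In resilient mice Supt16 held 88.1 ± 11.2 against 122 ± 20.5 reads at a site that lies also in Rpgrip1, and Supt6 75.5 ± 12.3 against 103 ± 14.8 reads.

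Supt3, a SAGA subunit in a gene of 342 kb, was the higher member of this group. An exonic site (chr17:44922301-44923900) held 151, 103, 108 and 105 reads in control and 193, 153, 131 and 157 in susceptible libraries, and the overlapping resilient site 104, 60.4, 71.96 and 85.4 reads in control and 105, 113, 87.2 and 136 in resilient libraries. Control library 25 was the high control at both. The log2 fold changes were 0.44 and 0.46, over shared controls, and the resilient limma adjusted p of 0.0112 became 0.0531 without resilient library 36. After early life stress Supt3 had 2 higher sites and 1 lower. The leading one (chr17:44984501-44985600) rested on few reads, with 17.8, 13.6 and 10.5 reads in standard control and 27.5, 29.9 and 35.6 in stressed libraries, and its enrichment over IgG was 1.17 in the stressed and 0.48 in the standard control group. Supt4a, the partner of Supt5, had no site.

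The transcription kinases and their cyclins had 5 lower sites and 1 higher in susceptible mice. Cdk8, the Mediator kinase, held called sites in 4 of the 5 tables, more than any other member. Its first susceptible site (chr5:146237201-146238800, intron) held 158, 116, 141 and 119.8 reads in control and 93.8, 107, 90.8 and 104 in susceptible libraries and its first resilient site (chr5:146263801-146264800) 71.7, 94.8, 98.1 and 95.4 reads in control and 65.5, 70.9, 66.6 and 52.02 in resilient libraries, and in both the groups did not overlap. A higher intronic site overlapped between the tables, at 0.48 and 0.41. In the early stress table an exonic site (chr5:146268301-146269300) was lower as well, with 133, 134.1 and 119 reads in standard control and 103, 90.5 and 85.2 in stressed libraries and a log2 fold change of -0.47. Cdk7, which activates other kinases within TFIIH, had a lower intronic site with the same coordinates in both defeat tables (chr13:100721001-100722000); control libraries held 157, 184, 197 and 169 reads in the resilient table and resilient libraries 135, 178, 117 and 132, an overlap. The resilient limma adjusted p of 0.0131 became 0.0676 without resilient library 33 and 0.0512 without control library 31. Ccnt1 was lower at 2 susceptible sites and Ccnt2 at 1 resilient site, and Cdk9, whose kinase they activate, had none.

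H3K27me2 gave almost no called site at these genes, a scarcity near that of all genes. No member held a site in the susceptible H3K27me2 table (0.769% of all genes did) and 1 did in the resilient one (0.877%, against 1.22%). That site is an intron of Cdk8 (chr5:146260301-146262000), with 109, 86.95, 127 and 136 reads in control and 58.9, 56.7, 104 and 109 in resilient libraries. Its groups overlapped. The enrichment over IgG was 0.05 in the resilient and 0.07 in the control group, so the read counts came from a region where background exceeded the mark, and limma gave an adjusted p of 0.0257, which became 0.106 without resilient library 51, 0.114 without resilient library 54, 0.0659 without control library 55 and 0.0803 without control library 58.

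The sequence-specific factors divided by gene. Sp3, which binds GC boxes, was lower at 1 site in susceptible (chr2:72969701-72970700) and 1 in resilient mice (chr2:72951201-72952200), with 62.8 ± 9.77 against 88.1 ± 17.4 reads and 85.5 ± 11.6 against 113 ± 19.9 reads (SD, n = 4 each). The susceptible limma adjusted p of 0.0132 became 0.0529 without susceptible library 35 and 0.0542 without control library 31, and the resilient one of 0.0144 became 0.0744 without resilient library 27 and 0.0894 without control library 28. Sp4, a family member abundant in neurons, was higher in susceptible mice (chr12:118250801-118252400), with 129.7, 135, 143 and 137 reads in control and 172, 169.8, 174 and 185 in susceptible libraries and a wide gap between the groups (limma adjusted p 0.0128). After early life stress it was lower at another intronic site (chr12:118273601-118274700), with 155, 160.4 and 138 reads in standard control and 95.2, 97.05 and 84.2 in stressed libraries, the leading lower call of that table among members (authors' adjusted p 5.38e-07). Sp1 held no site. Gtf2ird1, a TFII-I family gene, had 3 lower sites and 1 higher in susceptible mice. Its leading one (chr5:134410901-134412500) held 152, 154, 171 and 145 reads in control and 112, 115, 116 and 104 in susceptible libraries; the overlapping resilient site changed by -0.38 beside -0.48. Its limma change of -0.41 ± 0.14 SE was -0.25 without resilient library 30, and the adjusted p of 0.0111 became 0.0733 without resilient library 30. An early stress site of the gene was higher, at 75.3 ± 13.7 against 46.6 ± 2.69 reads (SD, n = 3 each). Taf15, an RNA-binding protein of the FET family, was lower at separate sites in susceptible (76.8 ± 10.2 against 105 ± 15.5 reads) and resilient mice (87.1 ± 16.4 against 118 ± 21.5 reads; limma adjusted p 0.0112, and 0.0527 without control library 31).

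**Figure D4:**
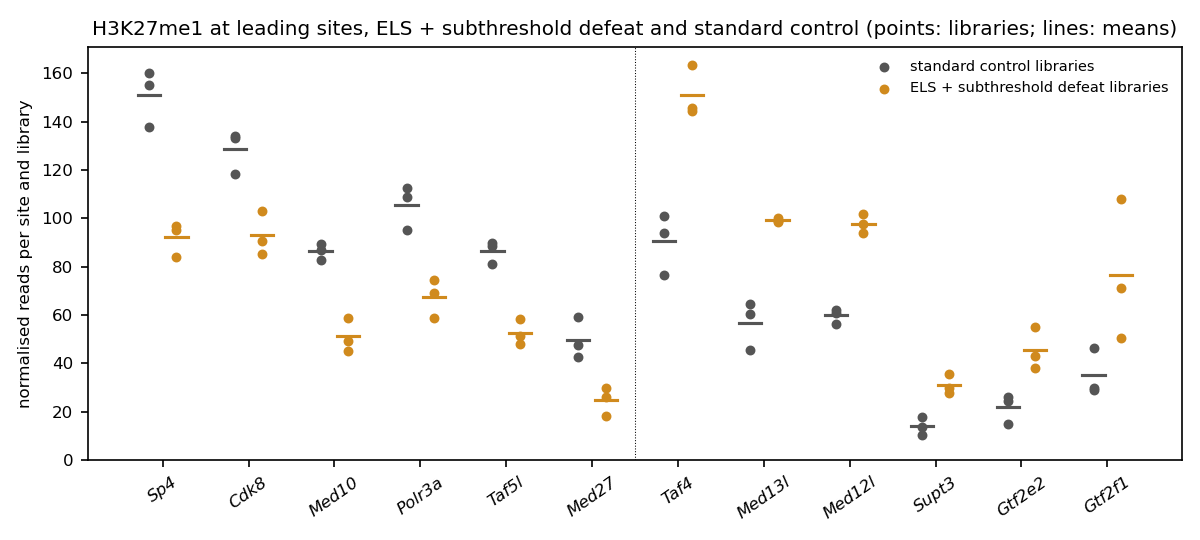
Normalised H3K27me1 reads per library (points) and group mean (lines) at the leading early stress site of the 6 lower (left) and 6 higher (right) member genes of smallest adjusted p. Groups do not overlap at any of these sites; Supt3, Gtf2e2 and Med27 stand on fewer reads than Sp4 or Taf4.

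Early stress sites had larger fold changes than those of the defeat tables, with medians of 0.81 at the 14 higher and -0.72 at the 9 lower sites (all genic sites 0.92 and -0.82). The early stress libraries were fewer and shallower and the sites were selected by another test. Sizes of change at called sites are therefore not comparable between these tables. All 23 had groups that did not overlap, as had 99.1% of all genic sites in that table, which used a negative binomial test. Mediator supplied 7 of them in 4 genes. Med13l was higher at adjoining intronic sites; the first (chr5:118689501-118690600) held 60.3, 45.7 and 64.5 reads in standard control and 98.6, 98.9 and 100.3 in stressed libraries, a log2 fold change of 0.81. Med10, a middle subunit without a site in the defeat tables, was lower in an intron (chr13:69811901-69813100), with 86.9, 89.4 and 82.8 reads in standard control and 49.3, 58.8 and 45.3 in stressed libraries (limma -0.75 ± 0.17 SE, adjusted p = 4.28e-05). Med27 was lower on few reads, at 29.8, 26.1 and 18.3 against 47.4, 42.8 and 59.3, with an enrichment of 0.67 in the stressed and 1 in the standard control group. In 7 of the 23 sites the mark lay below IgG in at least 1 group, against 1 of 125 susceptible and 2 of 57 resilient sites. Low enrichment was general in the early stress table. Its median in standard controls was 1.27 at member sites and 0.97 at all genic sites.

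Members with a site were longer genes. The 114 members had a median length of 18.6 kb and a median transcript GC of 49.9%, close to 17.6 kb and 49.4% for all genes. The 51 members with a lower susceptible site had medians of 28.3 kb and 49.6% GC and the 13 with a higher one 42.97 kb and 45.7%, whereas the 49 members without a site in any table had a median length of 8.72 kb. In each length class the share of members with a susceptible site was above that of all genes: 22.9% against 4.09% up to 10 kb, 50% against 18.6% from 10 to 25 kb, 66.7% against 28.3% from 25 to 50 kb, 83.3% against 38.5% from 50 to 100 kb, and 75% against 47.9% over 100 kb. The direction of a site ran with base composition in all genes, from 80.8% higher in the class of lowest GC to 6.11% in that of highest GC, with genes in 5 equal classes. For member sites the corresponding shares were 66.7% of 9 and 3.57% of 28. In the classes between them the member shares were 29.6%, 6.25% and 15.4%, against 60.2%, 43.3% and 16.7% in all genes. In resilient mice the shares of higher member sites were 33.3%, 46.7%, 25%, 42.9% and 23.1% from the lowest class to the highest, beside 56.5%, 50.4%, 47.9%, 40.3% and 30.7% in all genes. By gene length the resilient member shares were 0%, 22.2%, 22.2%, 31.6% and 77.8% from the shortest class to the longest. In all genes they were 27.5%, 24.4%, 34.9%, 42.3% and 60.7%. The parts of gene length and base composition in the direction of member sites were not tested.

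**Figure D5:**
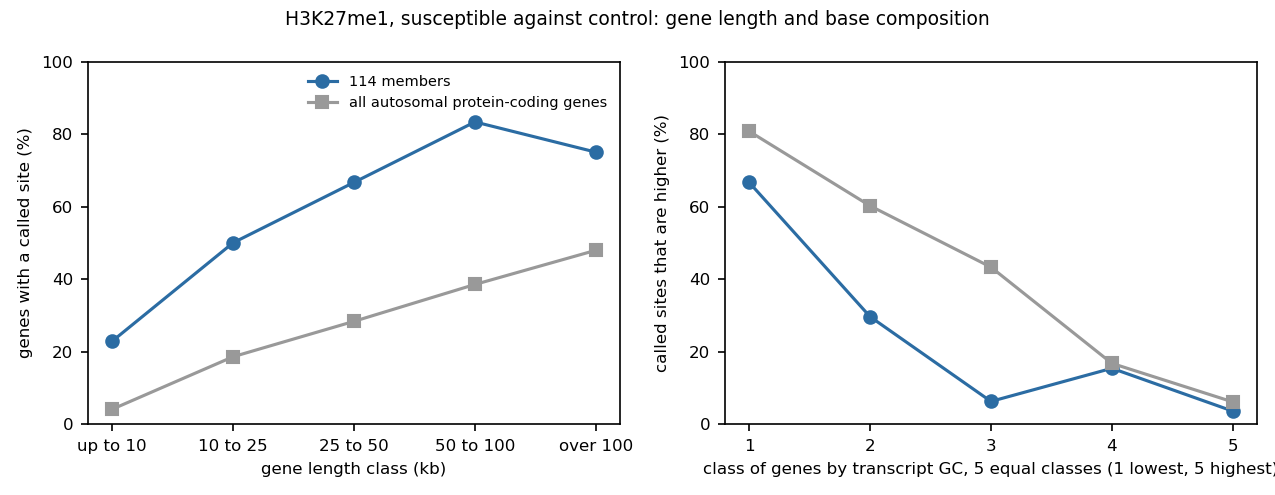
Susceptible against control H3K27me1. Left, percent of genes with a called site by gene length; right, percent of called sites that are higher by class of transcript GC (5 equal classes), for members (circles) and all autosomal protein-coding genes (squares). Members lie above all genes in each length class, and in each GC class below them, from 66.7% against 80.8% in the lowest to 3.57% against 6.11% in the highest.

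Most member sites of the defeat tables touched exons. These were 75 of 125 susceptible member sites (60%), against 33.1% of all genic sites, and 31 of 57 resilient ones (54.4%, against 29.6%). Of the 75 exonic susceptible member sites 68 were lower (90.7%, against 75.8% of all exonic sites), and of the 49 intronic ones 37 (75.5%, against 34.5% of all intronic sites). Control enrichment over IgG had a median of 3.83 at susceptible member sites, against 2.84 at all genic sites. At lower sites the median went from 4.09 in control to 2.53 in susceptible mice, and at higher sites from 2.48 to 3.52; these sites were selected on the same libraries. As a ratio, enrichment depends on the IgG reads as well, and it did not follow the reads of the mark at every site. At the lower Gtf2f2 site it was 1.74 in both groups. At a lower Supt6 site (chr11:78217201-78218200) it was 2.23 in susceptible and 2.07 in control mice. At a higher Gtf3c3 site (chr1:54408901-54409900) it was 3.22 in susceptible and 3.7 in control mice. The 105 lower sites were below the control mean in each susceptible library at 103 or more of them. The median log2 ratio was -0.40 in library 26, -0.53 in library 29, -0.31 in library 32 and -0.39 in library 35, and between -0.07 and 0.12 in the control libraries.

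Other genes of the same pathways held mostly lower sites in both defeat tables as well. A list of 82 other genes of initiation, pause release, Integrator and related complexes was all found, and 36 (43.9%, against 20.9%) held a site, 31 with lower and 13 with higher ones, over 56 lower and 22 higher sites. In resilient mice 29 (35.4%, against 15.5%) did, over 42 lower and 8 higher sites, and after early life stress 19 (23.2%, against 13.6%), over 16 lower and 13 higher. In all genes 51.6% of susceptible, 48.8% of resilient and 66.6% of early stress called sites were higher. No gene of the list had an H3K27me2 site. Trrap, the scaffold shared by SAGA and related complexes, had 9 lower susceptible and 5 lower resilient sites, with 146 ± 17.2 against 194 ± 36.9 reads at the first susceptible one (SD, n = 4 each). Ell, a subunit of the super elongation complex, held 81.5 ± 14.1 against 132 ± 15.7 at its leading susceptible site. Cdc73, a Paf1 complex subunit, had 4 higher susceptible sites but 3 lower resilient ones. Btaf1, which removes TATA-binding protein from DNA, held 8 of the 16 lower sites after early life stress, led by a site of 127 ± 2.37 in stressed and 198 ± 16.04 in control libraries (SD, n = 3 each). Markers of other cell types gave few sites: the microglial gene Cx3cr1 was lower in susceptible (6 sites) and resilient mice (1), and P2ry12 (lower), Slc1a2 and Mbp (both higher) had sites after early life stress, while vascular and cortical markers had none. Each was the only gene of its marker list with a site in that comparison, and the P2ry12 site is the lower Med12l site given above. The part of cell composition in the member sites was not tested.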

How the data were processed

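The 5 tables of differential sites deposited by the authors were used, covering 30 mark libraries in 8 groups; other groups were not analysed here. Per the file headers, sites came from diffReps 1.55.4 with 1000-bp windows, 100-bp steps, 100-bp fragments, a p limit of 0.0001 and IgG as background on mm10. The 4 defeat tables used a G-test and the early stress table a negative binomial test. Per the submitters' processing notes, the tools, with no role stated, included MACS2 2.2.6, SAMtools 1.10, Bowtie2 2.4.1, Trim Galore 0.6.5 and cutadapt 2.10. The deposited per-library values and group averages are a signal, reads divided by a library constant. The deposited enrichment is a ratio over IgG, the deposited log2 fold change is treated over control, and the authors' p-value and adjusted p-value run over 270324, 275586, 48304, 52728 and 1287727 windows.

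Members came from GENCODE M21. A site was called at an authors' adjusted p under 0.05. limma 3.58.1 (R 4.3.3) was fitted to log2(normalised reads + 1) over all sites of a table, with a trended prior and Benjamini-Hochberg adjustment, and was tested on simulated data. Fold changes on that scale understate changes of low counts. Intervals are Clopper-Pearson. GC is that of the longest transcript, known for 100% of members. Promoters came from RefSeq. Depth limits precision most in the early stress table. The members, the lists and the tests were chosen with earlier results of these data known. Named genes were, per table, the 6 lower and 6 higher members of smallest adjusted p, all members with sites in 2 or more tables or 3 or more sites in 1, none under a mean of 10 reads; Med28 was named for its promoter site, and genes given without values were named after their sites were counted. Alternatives were an adjusted p under 0.01, the gene body alone, site midpoints, a mean of 20 or more reads, a pseudocount of 5, no trend, adjustment over all windows and leaving out each library; sites in no other gene were added after seeing the data.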

Additional observations from a re-analysis of the deposited data

Results flagged for a closer look

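In groups of 4 libraries at the leading sites of named members, 10 of 140 had a library apart from the other 3 by Dixon's criterion; chance gives about 1 in 20. In the susceptible table these were Supt3, where control library 25 held 150.8 normalised reads and the others 102.5 to 107.7, and Taf5l, where susceptible library 29 held 46.96 and the others 76.6 to 82.0. In the resilient table the low libraries were control library 34 at Taf4 (99.93, nearest 138), control library 31 at Taf2 (115.58, nearest 149), control library 28 at Gtf3c1 (101.93, nearest 119.9) and control library 25 at Cdk8 (71.66, nearest 94.8). The high ones there were resilient library 33 at Supt16 (104.86, nearest 83.1), resilient library 30 at Taf5l (149.64, nearest 116), resilient library 36 at Taf2 (192.68, nearest 182) and control library 31 at Med13l (102.5, nearest 75.4).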

How the results depend on the processing

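The count of members with a site and the share of higher sites kept within 1.5 times or the counting interval under the stricter adjusted p, the gene body alone, site midpoints, the minimum of 20 reads and sites in no other gene, in each H3K27me1 table. Leaving out 1 library lowered the count of members in the susceptible table to 33 to 48 (33 without control library 31), in the resilient table to 17 to 22, and in the resilient H3K27me2 table to 0 to 1 (0 without library 51, 54, 55 or 58). Fewer reads against an unchanged p limit leave fewer calls by construction. These counts come from a G-test rebuilt on the normalised reads, within 0.05 log10 of the authors' p at 99.0% to 99.9% of sites; no such rebuild was run for the early stress table. The share of higher sites ran from 10.4% to 15.6% in susceptible and 28% to 46.2% in resilient mice on leaving out 1 library.

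Member sites past limma numbered 86 to 119 of 125, 47 to 56 of 57, 22 to 23 of 23 and 0 to 1 of 1 (resilient H3K27me2) on leaving out 1 library. Adjusted over all windows, 0 susceptible, 0 resilient and 0 resilient H3K27me2 sites passed, against 21 of 23 in the early stress table. The early stress sites were selected on the same libraries by a negative binomial test, which takes in the spread between libraries. Their passing is therefore no separate support. Of 742 alternatives at 86 named sites, 694 kept direction and call, 48 at 31 sites kept direction only, and 0 reversed. No paired analysis was run, because the labels do not say whether libraries were matched between groups. Depth limits the early stress sites most, at 5.0 to 7.78 reads per bin.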
